A study of Mus musculus with 4 samples.

Results

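The cytosolic ribosomal protein genes were examined in RNA-seq libraries from the fetal liver of mice labelled hnRNP L -/- and of wild-type mice; hnRNP L is a splicing regulator that binds RNA. They were taken by symbol as the genes whose names begin with Rpl or Rps and a number, with Rplp0, Rplp1, Rplp2 and Rpsa. Kinases of the Rps6k family, Rps19bp1 and symbols marked as pseudogenes were left out. This gave 85 of the 22011 genes in the deposited tables: 31 core proteins of the small subunit, 46 core proteins of the large subunit and 8 paralogues (Rpl3l, Rpl7l1, Rpl10l, Rpl22l1, Rpl36al, Rpl39l, Rps27l and Rps4y2). The last is listed by RefSeq as a transcribed pseudogene under the symbol Rps4l.

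RNA came from 2 hnRNP L -/- mice (KO) and 2 wild-type mice (WT), with 1 library each. The labels do not give the kind of deletion, the embryonic day or the litter. They list C57BL/6, LckCre transgenic, ROSA26 reporter and CD45.1 mice as the colony without tying them to a sample, so which alleles the WT mice carried is not known here. The 4 libraries were run on 2 slides of 2 libraries each, and the sources used here do not give the layout, so slide and genotype cannot be told apart.

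Ribosomal proteins line and brace the ribosomal RNA of the small (Rps) and large (Rpl) subunits, and most are present once in each ribosome. Their mRNAs are among the most abundant of a growing cell, and most carry a pyrimidine tract at the 5′ end (the 5′ TOP motif), through which their translation follows mTOR signalling. In humans, loss of 1 copy of any of several of these genes causes Diamond-Blackfan anaemia, a failure of red cell production, and fetal liver is the main site of red cell production before birth. Almost every ribosomal protein gene also has processed pseudogenes, intronless copies elsewhere in the genome with nearly the same sequence as the spliced mRNA.

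Mapped reads numbered 97490949 and 96260423 in the KO libraries and 70020061 and 111324295 in the WT libraries. The markers of the tissue were present, with reads in every library for 15 of 15 erythroid and 16 of 16 hepatocyte genes. Hnrnpl itself had 280 and 269 counts per 1000000 reads (CPM, on library sizes scaled by TMM) in KO, against 460 and 603 CPM in WT, a ratio of 0.516 (edgeR quasi-likelihood test, adjusted p = 0.0115). Its reads were thus lower in KO but far from absent, and since the sources used here do not give which part of the gene is deleted, this level does not check the deletion. The 4 libraries were read in 2 ways for each ribosomal protein gene: the reads on its transcript, and the reads that cross its known splice junctions. An intronless copy carries the joined exons too, so whether some junction reads came from such copies was not tested.

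The ribosomal protein genes as a group took a smaller part of the KO libraries. They held 0.866% and 0.759% of all transcript reads in KO, against 1.02% and 1.000% in WT. Of the reads over known junctions, they held 3.34% and 3.16% in KO, against 3.85% and 3.97% in WT. The groups did not overlap in either readout, and KO replicate 2 had the lowest share in both. Summed over the 85 genes, transcript reads came to 8624 and 7131 CPM in KO and 10603 and 10240.0 CPM in WT, a ratio of means of 0.756, and junction reads gave a ratio of 0.788. In whole tissue, fewer cells of a type and less RNA per cell cannot be told apart.

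The 2 KO libraries were not alike. Each gene's log2(CPM + 0.5) was set against its own mean over the 4 libraries, and the median over the 80 genes tested was -0.03 in KO replicate 1 and -0.34 in KO replicate 2, against 0.18 in each WT library. Junction reads gave -0.04 and -0.34 in KO, against 0.14 and 0.21 in WT. KO replicate 2 held the lowest of the 4 values for 61 of 80 genes by transcript reads and for 66 of 82 by junction reads. Taken alone, KO replicate 1 lay below both WT libraries for 52 of 80 genes and above both for 6. The corresponding numbers for KO replicate 2 were 71 and 2.

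**Figure D1:**
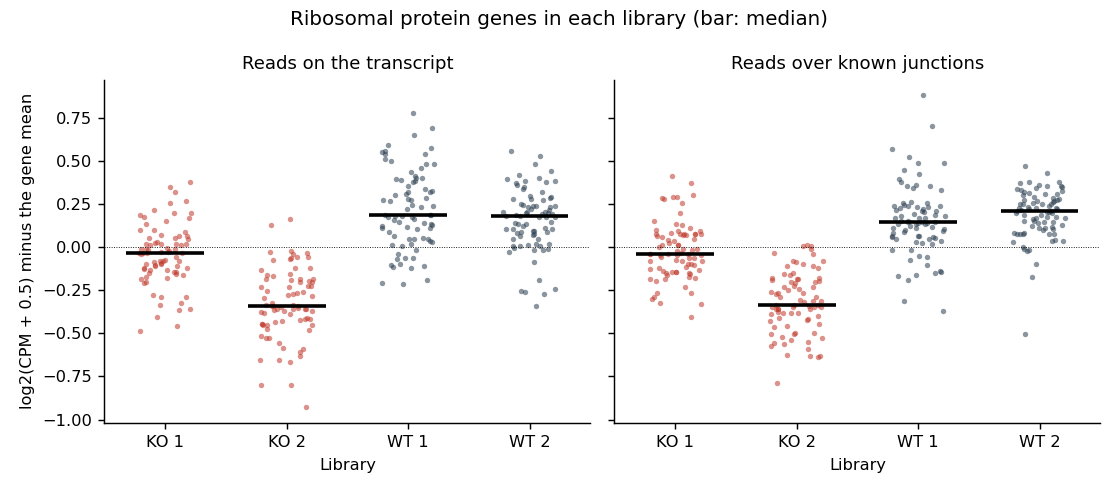
Each point is a ribosomal protein gene in a library, given as its log2(CPM + 0.5) minus the gene's mean over the 4 libraries, for transcript reads (left) and reads over known junctions (right); bars are medians. The medians were -0.03 and -0.34 in KO and 0.18 and 0.18 in WT for transcript reads, with KO replicate 2 lowest.

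Markers of the cell types in the tissue moved in the same libraries. The summed level of 15 erythroid markers was 27864 and 20910 CPM in KO, against 46046 and 42333 CPM in WT, with 10 of 15 lower and none at 0. That count was 13 when KO replicate 1 was left out and 2 when KO replicate 2 was, and it was 4 or 3 when WT replicate 1 or WT replicate 2 was. The summed level of 16 hepatocyte markers was 91432 and 74855 CPM in KO, against 59848 and 43297 CPM in WT, with 5 of 16 higher, a count of 8 without WT replicate 1 and 2 without WT replicate 2. Of 12 markers each, 9 megakaryocyte, 6 granulocyte and 7 endothelial markers were higher in KO and 0 lower, and 4 stellate markers were higher and 1 lower. Of all genes tested, 11.4% were higher and 9.44% lower. With a library left out, the median log2 fold change was 0.65 to 0.92 for the megakaryocyte and 0.60 to 1.02 for the granulocyte markers. The endothelial count was 3 without WT replicate 1, and the higher stellate count was 2 without KO replicate 2, WT replicate 1 or WT replicate 2. Without KO replicate 1, 2 granulocyte markers were lower. Macrophage markers had 1 of 10 tested higher and 2 lower, and 4 of 10 tested B lymphoid markers were lower, or 1 without KO replicate 1, KO replicate 2 or WT replicate 1. Cardiac muscle markers summed to 8.63 and 25.8 CPM in KO, against 75.1 and 503 CPM in WT. Of 12 tested, 11 were lower and 0 higher, and Myl3, Nppa and Nkx2-5 were at 0 in at least 1 library. Their median log2 fold change was -4.95, and -6.25 to -2.97 with a library left out. The part of these cell types in the levels of the ribosomal protein genes was not tested.

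Most ribosomal protein genes lay slightly lower in KO by transcript reads, and none was called higher. Of the 85 genes, 80 had enough reads to be tested, and 10 were lower in KO and 0 higher (edgeR quasi-likelihood test, adjusted p under 0.05), with 0 higher also at an unadjusted p under 0.05 among the 33 genes that reached it. The 10 made up 12.5% of those tested. The background was 9.44% of 15029 genes lower, 11.4% higher and 20.8% called in either direction. The share called was thus near the background in this fit, but further above it in some alternatives given at the end. The share with a log2 fold change below 0 was further from it: 74 of 80 (92.5%) beside 48.7% of all genes tested. Both KO libraries lay below both WT libraries for 50 of 80 genes (62.5%) beside 31.7% of all genes, and above them for 0, beside 33.5%. The median log2 fold change was -0.37 over the ribosomal protein genes and 0.02 over all genes tested.

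The core small subunit genes had 3 of 29 lower and a median log2 fold change of -0.39, and the core large subunit genes had 6 of 45 lower and a median of -0.36. Over all 80 genes the median was -0.25 without KO replicate 2 and -0.55 without KO replicate 1. It was -0.36 without WT replicate 1 and -0.40 without WT replicate 2.

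**Figure D2:**
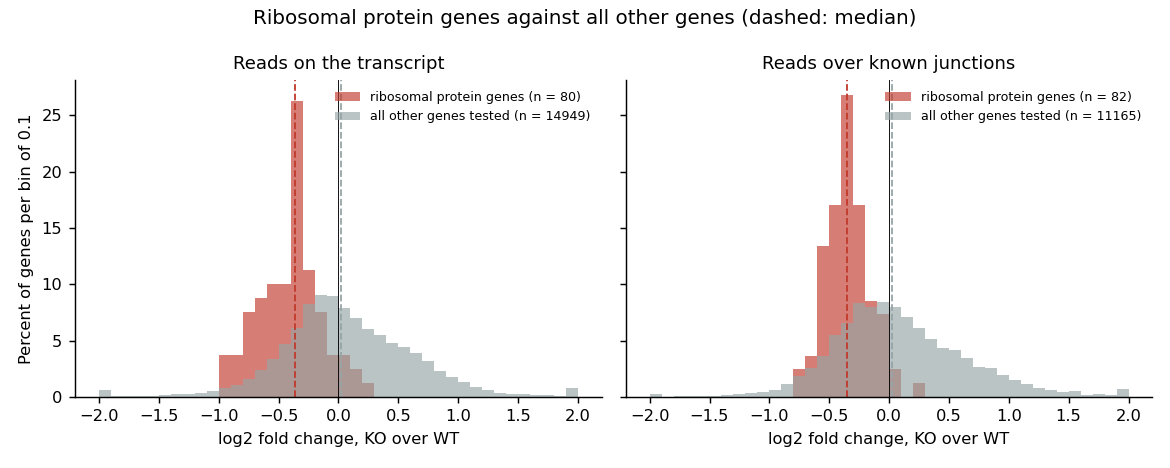
Histograms of the log2 fold change, KO over WT, in bins of 0.1 as a percent of genes, for the ribosomal protein genes (red) and all other genes tested (grey), by transcript reads (left) and junction reads (right). Values beyond the axis are drawn in the outer bins, dashed lines are medians, and the red distributions centre on -0.37 and -0.35, with the grey ones at 0.02.

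The calls of Rpl22l1 and Rpl27a held with every library left out in turn. Rpl22l1 is a paralogue of the large subunit gene Rpl22 (chromosome 3, 28704433 to 28706337, plus strand, in the coordinates of the deposited tables, whose build the sources used here do not give). It had 25.8 and 27.0 CPM in KO, against 49.3 and 51.0 CPM in WT. The values within each genotype were close and the groups far apart. Its log2 fold change was -0.93 ± 0.11 (SE), with an edgeR adjusted p of 0.00676. Rpl22 itself, the core gene, did not pass, with 130 and 152 CPM in KO and 180 and 179 CPM in WT (log2 fold change -0.35 ± 0.12 SE, edgeR adjusted p = 0.0756). Rpl27a, a protein of the large subunit, had 28.1 and 27.4 CPM in KO, against 47.2 and 42.7 CPM in WT, with no overlap. Its log2 fold change was -0.70 ± 0.12 (SE, edgeR adjusted p = 0.0111). Neither Rpl22l1 nor Rpl27a passed by junction reads, which are given further on.

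Of the other 5 large subunit genes that fell, Rpl14 is described with its junction reads further on. Rpl39, a short protein at the exit tunnel of the large subunit and encoded on the X chromosome, had 96.3 and 66.8 CPM in KO, against 154.7 and 117 CPM in WT. The groups did not overlap, but the spread within each was wide. Its ratio was 0.600 (edgeR adjusted p = 0.0383), a call lost without KO replicate 2 (adjusted p = 0.145) or WT replicate 1 (0.133). Rpl30, which in yeast binds its own transcript and holds back its splicing, had 55.6 and 42.1 CPM in KO and 70.8 and 89.9 CPM in WT. Its ratio was 0.608 (edgeR adjusted p = 0.0267), lost without KO replicate 2 (0.108) or WT replicate 2 (0.106). An overlapping gene model of the same strand, Gm12191, gave nearly the same CPM, so these reads cannot be assigned to 1 of the 2 models.

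Rpl15, a large subunit protein, had 26.6 and 30.7 CPM in KO, against 41.3 and 46.3 CPM in WT. All 4 values were ordered by genotype, and the ratio was 0.654 (edgeR adjusted p = 0.0191), lost without KO replicate 1 (adjusted p = 0.0519) or WT replicate 2 (0.0888). Rpl5, which joins Rpl11 and the 5S RNA in a complex that can bind Mdm2, the regulator of p53, had 14.6 and 16.9 CPM in KO and 23.9 and 21.9 CPM in WT. Its ratio was 0.689 (edgeR adjusted p = 0.0363), and the call was lost without any 1 of the 4 libraries (adjusted p of 0.0663 to 0.164). Its partner Rpl11 had 4.43 and 3.26 CPM in KO, against 6.07 and 4.82 CPM in WT, and did not pass (edgeR adjusted p = 0.179).

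Among small subunit genes the largest fall was that of Rps20 (chromosome 4, 3761620 to 3762747, minus strand). It had 219 and 159 CPM in KO, against 357 and 328 CPM in WT. The KO values lay well under both WT values, with KO replicate 2 lowest. The log2 fold change was -0.86 ± 0.17 (SE), and the call (edgeR adjusted p = 0.0165) was lost without KO replicate 2 (0.0504). Rps10 had 17.0 and 14.4 CPM in KO and 24.6 and 24.7 CPM in WT, a ratio of 0.638 (edgeR adjusted p = 0.0203) that did not pass without KO replicate 2 (0.0884), WT replicate 1 (0.0752) or WT replicate 2 (0.0822). Rps14, the gene whose loss of 1 copy underlies the anaemia of the human 5q- syndrome, had 149 and 165 CPM in KO, against 203 and 212 CPM in WT. Its ratio of 0.754 (edgeR adjusted p = 0.0445) was near the threshold and was lost without any 1 library (adjusted p of 0.0803 to 0.175).

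**Figure D3:**
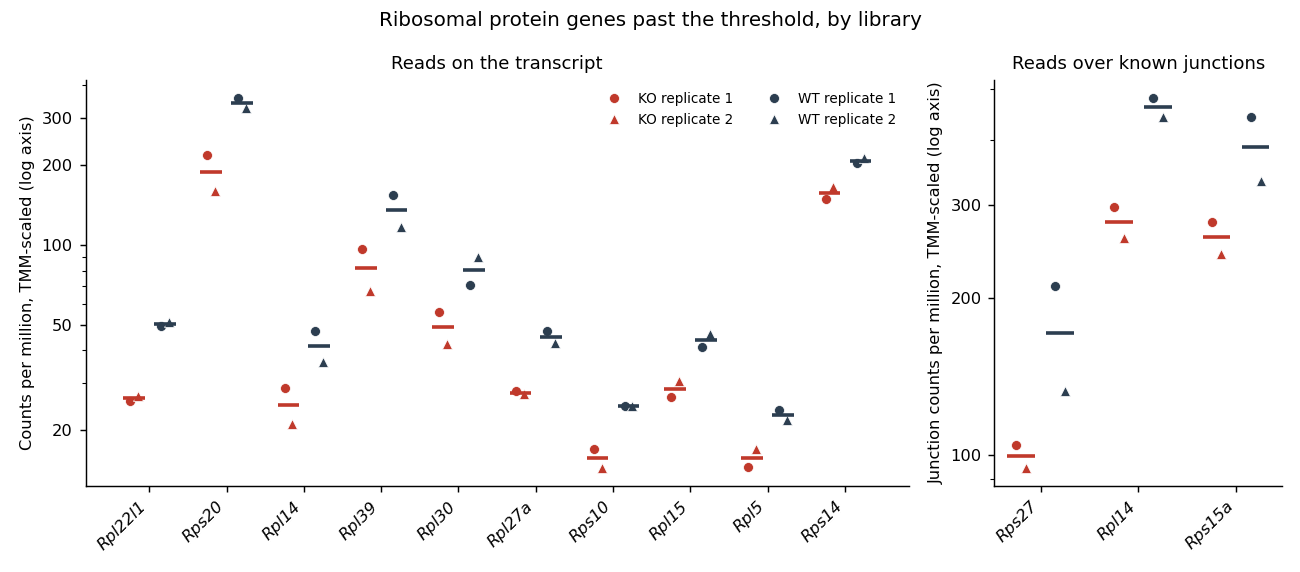
CPM of genes past the threshold in each library on a log axis, with the mean of each genotype as a bar, for the 10 genes called by transcript reads (left) and 3 genes called by junction reads (right). Both KO libraries lie below both WT libraries for every gene drawn; the points of Rpl22l1 lie close together within each genotype.

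The first bases of these transcripts are shown because the 5′ TOP motif is what ribosomal protein mRNAs are known to share. RefSeq (GRCm38.p6) gave a start of transcription for 64 of the 85 genes, but not for Rps20 or Rpl30, and Rps14 is not shown. Each window holds 10 bases before the annotated start and 20 from it, on the strand of the gene, and capitals mark runs of at least 5 C or T. Where a gene has several annotated starts, the 1 with the longest run is shown.
Rpl14 (chr9:120571507-120571536, plus strand): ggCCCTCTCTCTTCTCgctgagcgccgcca
Rpl15 (chr14:18270967-18270996, minus strand): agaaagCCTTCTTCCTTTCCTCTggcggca
Rps10 (chr17:27635225-27635254, minus strand): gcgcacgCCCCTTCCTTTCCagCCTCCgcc
Rps15a (chr7:118116128-118116157, minus strand): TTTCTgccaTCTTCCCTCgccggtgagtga
Rps27 (chr3:90213629-90213658, minus strand): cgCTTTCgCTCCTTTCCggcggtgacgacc
Rpl27a (chr7:109519185-109519214, plus strand): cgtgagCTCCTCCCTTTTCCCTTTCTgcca
Rpl39 (chrX:37085203-37085232, minus strand): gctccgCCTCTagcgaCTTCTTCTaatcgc
Rpl5 (chr5:107900518-107900547, plus strand): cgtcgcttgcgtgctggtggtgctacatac
Rpl22l1 (chr3:28805498-28805527, plus strand): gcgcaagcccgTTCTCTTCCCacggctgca
Rps27l (chr9:66946076-66946105, plus strand): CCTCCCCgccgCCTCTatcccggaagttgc
Rpl7l1 (chr17:46782637-46782666, minus strand): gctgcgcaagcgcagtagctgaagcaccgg

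The tract crosses the annotated start in Rpl14, Rpl15, Rps10, Rps15a, Rps27 and Rpl27a, and it begins just after it in Rpl22l1 and Rps27l. In Rpl39 a run ends at the start and another follows. The windows of Rpl5 and Rpl7l1 hold no such run. A C at the annotated start followed by at least 4 C or T, read on the gene's strand, was present in 13 of 64 ribosomal protein genes (20.3%), in 813 of 27025 genes of the table (3.01%) and in 0 of 69 mitochondrial ribosomal protein genes. All 13 were core genes. A run of at least 5 C or T beginning within 5 bases of the start on either side, a looser search that also takes in the first, was present in 46.9% of the ribosomal protein genes and 30.0% of all genes. These are matches of letters at annotated starts, several for some genes, and an annotated start that is off by a few bases hides the first pattern.

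Other translation genes that carry 5′ TOP motifs were read as a list of 15. Of these, 2 were lower and 0 higher, with a median log2 fold change of -0.25, beside 9.44% lower among all genes tested. The log2 fold change was below 0 for all 15, beside 48.7% of all genes, and for 11 to 15 with a library left out. The lower count was 1 without KO replicate 1, WT replicate 1 or WT replicate 2. Pabpc1, the cytoplasmic poly(A)-binding protein, had 273 and 299 CPM in KO, against 668 and 465 CPM in WT, a ratio of 0.504 (edgeR adjusted p = 0.0155), and it passed with every library left out. Eif3f, a subunit of initiation factor eIF3, had a ratio of 0.716 (edgeR adjusted p = 0.0254), lost without KO replicate 1 (0.0862), WT replicate 1 (0.0696) or WT replicate 2 (0.0947). Of 43 initiation, elongation and release factors, a list that overlaps this one, 6 were lower and 0 higher. Their median was -0.28, and -0.29 to -0.25 with a library left out. The log2 fold change was below 0 for 39 of the 43 (90.7%). Both KO libraries lay below both WT libraries for 28 (65.1%), beside 31.7% of all genes, and above them for 2. These 2 shares are close to those of the ribosomal protein genes, 92.5% and 62.5%. Of 15 regulators of TOP mRNAs and of translation downstream of mTOR, 0 were lower and 1 higher, Eif4ebp2, a repressor of cap-dependent initiation, at 1.42 times WT (edgeR adjusted p = 0.0254), a call lost without KO replicate 2 (0.109), WT replicate 1 (0.110) or WT replicate 2 (0.0627).

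Genes that build ribosomes were read beside those of the ribosome itself. Of 60 ribosome assembly and rRNA processing factors, 3 were higher and 2 lower, beside 11.4% higher and 9.44% lower among all genes tested. Their median log2 fold change was -0.09, with 40 of 60 below 0 (66.7%). Leaving out KO replicate 1 gave 2 higher and 2 lower, KO replicate 2 or WT replicate 1 gave 0 of each, and WT replicate 2 gave 3 higher and 0 lower. Rrp12, in yeast a factor for the nuclear export of both subunits, had 52.4 and 65.5 CPM in KO and 32.2 and 38.6 CPM in WT (edgeR adjusted p = 0.0182), lost without KO replicate 2 (0.0720) or WT replicate 1 (0.0660). Of 13 genes of RNA polymerase I and its factors, 1 was lower, Ubtf, a nucleolar factor that binds the ribosomal DNA, at 0.752 of WT (edgeR adjusted p = 0.0468), lost without any 1 library (adjusted p of 0.0669 to 0.209). The 75 tested mitochondrial ribosomal protein genes, whose products belong to another ribosome, had 8 lower, 0 higher and a median of -0.21, a share lower near the 9.44% of all genes. Of them 59 (78.7%) lay below 0, beside 48.7% of all genes. Both KO libraries lay below both WT libraries for 41 (54.7%), beside 31.7% of all genes, and above them for 7. The number lower was 14 without KO replicate 1 and 0 without KO replicate 2 or WT replicate 1, and leaving out WT replicate 2 gave 1 lower and 1 higher. Fau, a ribosomal protein made as a fusion to a ubiquitin-like protein, had a ratio of 0.871 and did not pass (edgeR adjusted p = 0.648).

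Transcript reads gave an uneven view of the ribosomal protein genes. Per kilobase of transcript, Rpl4, a large subunit protein at the exit tunnel, was among the most abundant with 759 and 741 reads per kilobase per 1000000 reads (RPKM, on TMM-scaled library sizes) in KO, against 946 and 975 RPKM in WT. Rpl4, Rplp1, Rpl32 and Rps26 had means over the 4 libraries of 855, 718, 716 and 636 RPKM, and their ranges over the libraries overlapped. At the other end, Rpl28 and Rps28, both core proteins of the ribosome, had 13 and 14 reads in the 4 libraries together and could not be tested. Rpl10l, a testis form of Rpl10, had 2 reads, and Rpl3l, a striated muscle form of Rpl3, had 10. The 5 most abundant genes by reads held 48.7% and 49.3% of the genes' reads in KO and 47.6% and 48.4% in WT.

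Reads over junctions did not follow that order. Rpl23a, another large subunit protein at the exit tunnel, had 41 transcript reads but 12168 reads over its known junctions, and Rps28 had 14 and 2504. Over 82 ribosomal protein genes with at least 100 reads of both kinds together, junction reads outnumbered transcript reads in 45 (54.9%), with a median of 1.62 junction reads per transcript read. This was the case for 138 of 13320 other genes (1.04%, median 0.108) and for 2 of 76 mitochondrial ribosomal protein genes (median 0.143). The ribosomal protein genes also shared more of their sequence with other transcripts: a median of 48.5% of the windows of 50 bases in a ribosomal protein transcript recurred in a transcript of another gene, against a median of 0 for mitochondrial ribosomal protein genes. The shared part and the log10 of the ratio had a Pearson r of 0.48 and a Spearman rho of 0.45 over 83 genes, which share the same 4 libraries. Transcript counts were limited to primary alignments of mapping quality 10 or more, per the file headers, and the sources used here do not give whether junction reads passed the same filter.

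**Figure D4:**
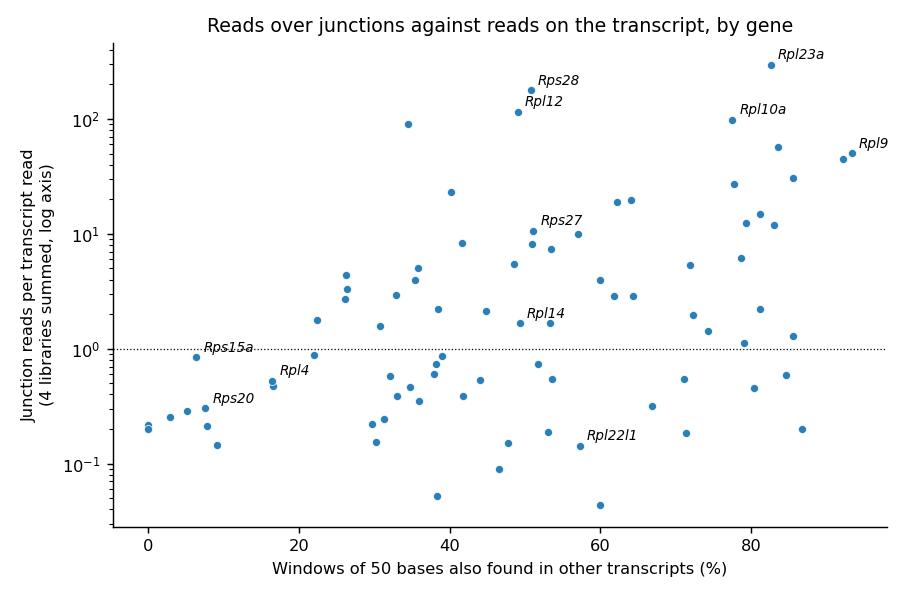
Each point is a ribosomal protein gene: the percent of its 50-base windows that recur in transcripts of other genes against its junction reads per transcript read, summed over the 4 libraries, on a log axis; the dotted line marks 1. Rpl23a, with 82.6% of its windows shared, stands high, and Rps20, with 7.57% shared, lies below 1. That share of Rps20 is of a GENCODE transcript of 3706 bases, against 502 bases for the transcript counted.

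The calls were also counted by shared sequence. By transcript reads, of the genes with under 50% of their windows shared, 9 of 42 were lower (21.4%), and of the others 1 of 38 (2.63%). Of all genes tested 9.44% were lower. The medians of the 2 classes were -0.40 and -0.32. These medians became -0.56 and -0.54 without KO replicate 1 but -0.30 and -0.19 without KO replicate 2. Leaving out WT replicate 1 gave -0.41 and -0.30, and leaving out WT replicate 2 gave -0.38 and -0.42. By junction reads 2 of 42 and 2 of 40 were lower, beside 4.4% of all genes. The split rests on GENCODE transcripts, which for some genes are longer than the transcript counted. These include the called genes Rps20 (3706 against 502 bases) and Rps10 (887 against 573). Which class they fall in by the counted transcript was not determined. The difference between the counts was not tested. The shared part and the log10 of the level per length had a Pearson r of -0.28 and a Spearman rho of -0.35 over 85 genes. Calls also differed with depth. None of the 20 tested genes with fewer than 1000 reads over the 4 libraries passed, with a median SE of 0.39 in the log2 fold change. From 1000 to under 5000 reads 2 of 16 passed (median SE 0.17), and with at least 5000 reads 8 of 44 (median SE 0.16). These classes had median log2 fold changes of -0.43, -0.38 and -0.37. The 3 lowest fold changes included 2 such sparse genes: Rpl12, of the stalk base, at -0.99 ± 0.38 (SE), and Rpl10a, of the L1 stalk, at -0.98 ± 0.54 (SE), neither past the threshold (edgeR adjusted p of 0.104 and 0.229). The 3 highest were Rpl36 at 0.22 ± 0.61, Rpl29 at 0.13 ± 0.21 and Rps12 at 0.11 ± 0.57 (SE), all within their error of 0.

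By junction reads the ribosomal protein genes were again low in KO, with few single calls. Of 82 genes tested, 4 (4.88%) were lower and 0 higher, with 0 higher also among the 34 genes at an unadjusted p under 0.05, beside a background of 4.4% of 11247 genes that were lower and 10.6% called in either direction (edgeR quasi-likelihood test). The median log2 fold change was -0.35, with 79 of 82 genes below 0 (96.3%) beside 48.7% of all genes. Both KO libraries lay below both WT libraries for 54 of 82 genes (65.9%) beside 27.4% of all genes, and above them for 0. In both readouts 73 of the 79 genes tested in each lay below 0, and 36 had both KO libraries below both WT libraries, though the readouts come from the same libraries. Across these 79 genes the log2 fold changes of the readouts had a Pearson r of 0.40 and a Spearman rho of 0.38. The median was -0.23 without KO replicate 2 and -0.53 without KO replicate 1. It was -0.37 without WT replicate 1 and -0.32 without WT replicate 2.

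Rpl14, a large subunit protein (chromosome 9, 120480634 to 120483770, plus strand), was the single gene called in both readouts. By transcript reads it had 28.7 and 21.1 CPM in KO, against 47.2 and 36.2 CPM in WT (ratio 0.598, edgeR adjusted p = 0.0322), a call lost without KO replicate 2 (0.124) or WT replicate 1 (0.128). Over its junctions it had 298 and 260 CPM in KO, against 481 and 443 CPM in WT, a log2 fold change of -0.73 ± 0.16 (SE, edgeR adjusted p = 0.0109). The junction groups lay further apart than the spread within them, and this call held without each library in turn.

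The genes called by junction reads also include Rps27 and Rps15a of the small subunit. Rps27, a zinc-finger protein of the small subunit, had 105 and 94.8 CPM over its junctions in KO, against 210 and 133 CPM in WT, a ratio of 0.584 (edgeR adjusted p = 0.0214), lost without WT replicate 1 (0.175). Its transcript reads were few, 103 and 69 in KO and 81 and 80 in WT, and did not follow (log2 fold change -0.16 ± 0.39 SE, edgeR adjusted p = 0.802). Rps15a had 279 and 242 junction CPM in KO and 443 and 334 in WT, a ratio of 0.672 (edgeR adjusted p = 0.0464), lost without KO replicate 2 (0.144) or WT replicate 1 (0.285). In both genes the KO libraries were both below WT, and WT replicate 1 was the highest library.

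Several genes called by transcript reads were less low over their junctions. Rpl15 had 39.5 and 28.3 junction CPM in KO and 32.8 and 46.2 in WT, so its groups overlapped (log2 fold change -0.23 ± 0.23 SE). Rpl30 overlapped too, with 70.5 and 42.4 in KO and 65.5 and 82.7 in WT. Rpl27a had 88.1 and 58.6 in KO, against 96.0 and 97.8 in WT. Rpl39 had 278 and 335 in KO, against 381 and 352 in WT. Rpl30, Rpl27a and Rpl39 did not pass (edgeR adjusted p of 0.266, 0.191 and 0.330). Rps20 had 496 and 362 junction CPM in KO, against 554 and 691 in WT, and Rpl22l1 27.2 and 31.4 in KO, against 45.8 and 43.9 in WT. Neither passed (edgeR adjusted p of 0.0785 and 0.0581), though neither pair of groups overlapped. Whether a gene's change differed between its readouts was not tested.

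**Figure D5:**
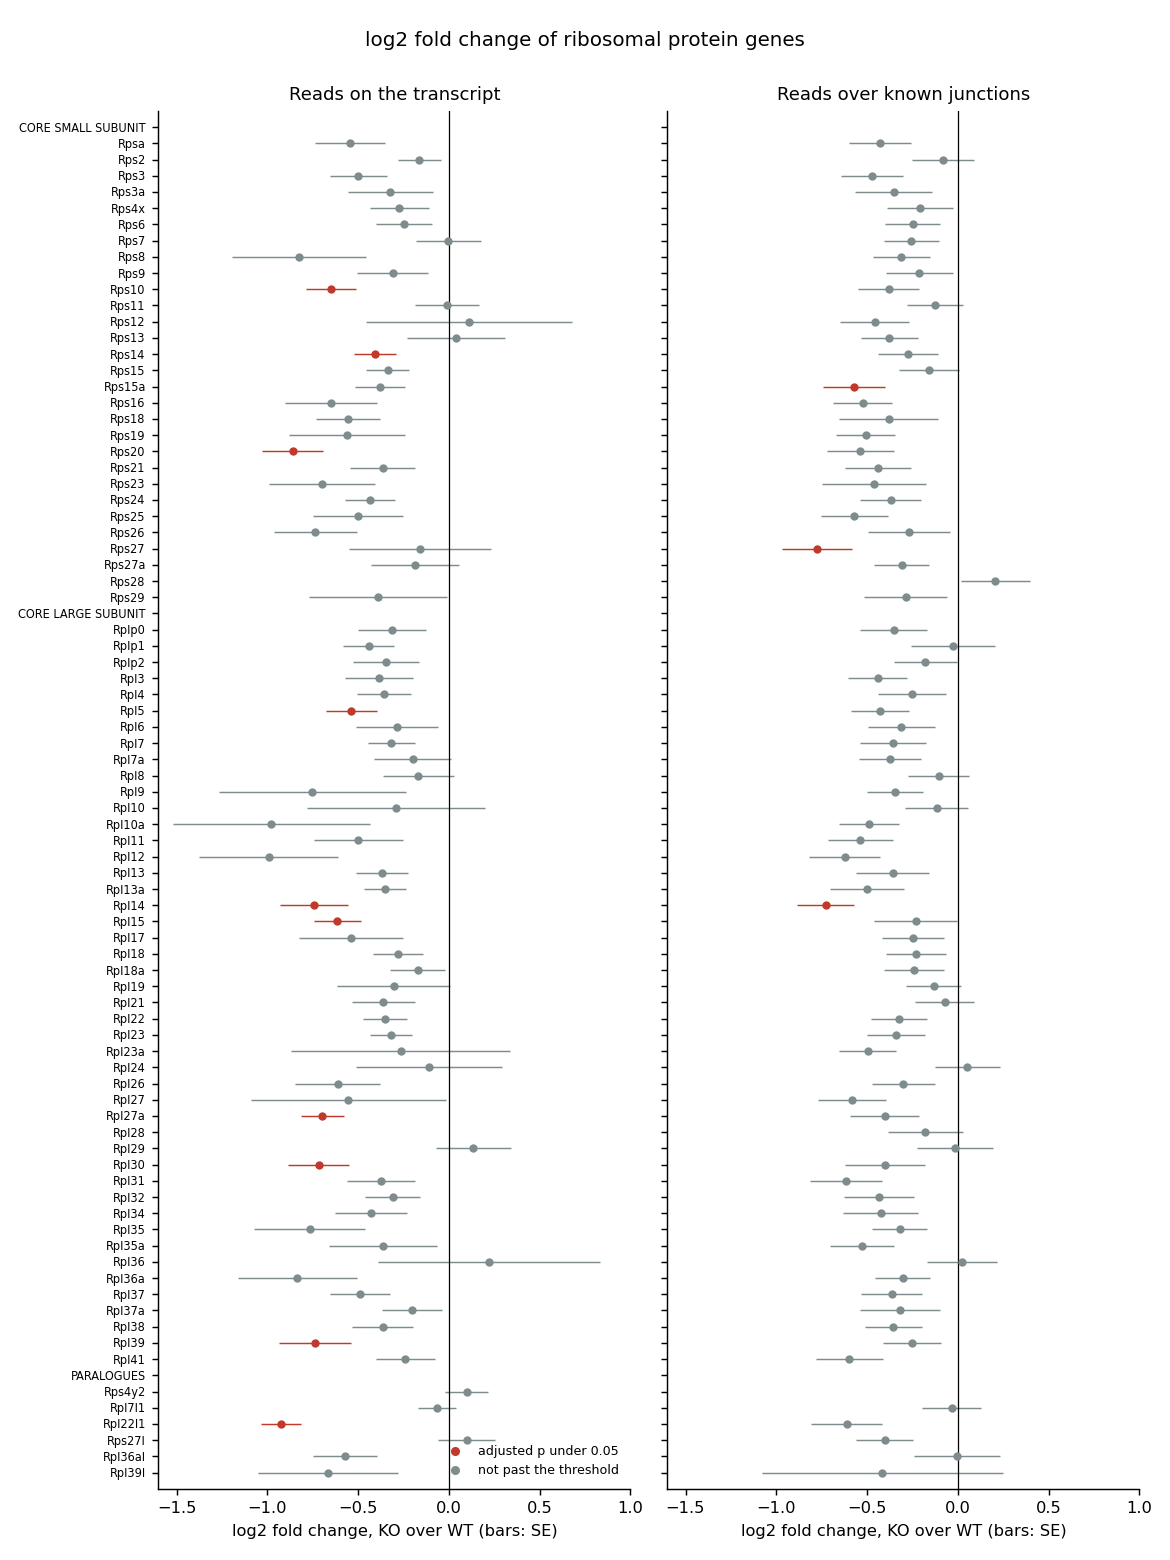
The log2 fold change of the ribosomal protein genes tested and reported here, KO over WT, with its SE, by transcript reads (left) and junction reads (right), ordered by subunit and number; red points passed an adjusted p of 0.05. Nearly all points lie left of 0 in both readouts, and no red point lies right of it.

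The genes of Diamond-Blackfan anaemia were followed as a group because of the tissue. Of the 20 such genes in the set, 18 were tested by transcript reads, with 4 lower, 0 higher and a median log2 fold change of -0.52, and all 18 lay below 0. Among all genes tested 9.44% were lower and 48.7% lay below 0. The 4 were Rps20, Rpl15, Rps10 and Rpl5, each given above. The median of the group was -0.72 without KO replicate 1, -0.27 without KO replicate 2, -0.40 without WT replicate 1 and -0.54 without WT replicate 2. By junction reads 3 of 20 were lower, Rps27 and Rps15a among them, beside 4.4% of all genes, and the median was -0.41, close to the -0.35 of the whole set. That median of the group was -0.58 without KO replicate 1, -0.33 without KO replicate 2, -0.40 without WT replicate 1 and -0.43 without WT replicate 2. Rps19, the gene most often mutated in the disease, had 96.5 and 42.2 CPM in KO, against 98.7 and 106 CPM in WT. Its KO values lay far apart and the gene did not pass (ratio 0.679, edgeR adjusted p = 0.242), nor did its junction reads, 287 and 247 CPM in KO and 417 and 343 CPM in WT (ratio 0.703, adjusted p = 0.0610). Among the alternatives run on all 4 libraries, Rps19 passed as lower by junction reads with DESeq2, no filter or a replicate block, and by transcript reads with no filter. Rps28 was the member of this group that lay above 0 over its junctions, with 115 and 78.1 CPM in KO and 77.9 and 89.0 in WT, overlapping (edgeR adjusted p = 0.532).

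Of the 4 core genes on the X chromosome, Rpl39 fell and the other 3 did not pass by transcript reads. Their median log2 fold change was -0.51 by transcript reads and -0.23 by junction reads, where none passed. Rpl36a had 1.504 and 1.01 CPM in KO, against 2.20 and 2.29 CPM in WT (edgeR adjusted p = 0.110). Rps4x, with 36.3 and 34.9 CPM in KO and 36.0 and 50.0 CPM in WT, and Rpl10, with 0.334 and 0.371 CPM in KO and 0.433 and 0.432 CPM in WT, had adjusted p of 0.259 and 0.702.

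The stalk proteins, which recruit the elongation factors to the large subunit, did not pass in either readout in the edgeR test used throughout. Rplp0, the base of the stalk, had 587 and 429 CPM in KO, against 581 and 683 CPM in WT, and the groups overlapped. Rplp1 had 312 and 258 CPM in KO, against 400.0 and 374 CPM in WT (edgeR adjusted p = 0.0621), and passed as lower with DESeq2 (adjusted p = 0.0132), limma voom (0.0482), no filter on low counts (0.0344), a GC trend removed (0.0260), a replicate block (0.0243) or without KO replicate 1 (0.0389). Rplp2 had 81.4 and 54.5 CPM in KO and 83.1 and 89.7 CPM in WT (edgeR adjusted p = 0.204), and passed without KO replicate 1 (0.0220). By junction reads Rplp1 lay close to WT, with 113 and 75.8 CPM in KO and 71.5 and 120 CPM in WT. Rpsa, a small subunit protein also known as the laminin receptor, had 115 and 93.1 CPM in KO, against 181 and 123 CPM in WT (edgeR adjusted p = 0.0810).

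The paralogues did not move as one. Besides Rpl22l1, 5 were tested and none passed by transcript reads. Rpl36al had 37.1 and 38.0 CPM in KO, against 66.2 and 45.6 CPM in WT, with no overlap (edgeR adjusted p = 0.0542), but over its junctions the groups overlapped (log2 fold change -0.01 ± 0.24 SE). By transcript reads, among the alternatives run on all 4 libraries, it passed as lower with DESeq2, no filter, a GC trend or a replicate block. Rpl7l1 stayed within its spread in both readouts, with 106 and 99.6 CPM in KO and 104 and 111 CPM in WT. Rps27l, a target of p53 and paralogue of Rps27, had 23.2 and 19.6 CPM in KO and 18.0 and 22.0 CPM in WT by transcript reads. Its junction reads were 199 and 236 CPM in KO, against 273 and 301 in WT, with no overlap, and did not pass (log2 fold change -0.40 ± 0.16 SE, edgeR adjusted p = 0.115). Rpl39l, a germ line form of Rpl39, had 2.13 and 1.17 CPM in KO and 3.22 and 2.05 CPM in WT (adjusted p = 0.250). Rps4y2 had 36.7 and 41.1 CPM in KO and 35.8 and 36.8 CPM in WT. It lies inside Tmtc1 on the other strand, a gene that was 5.52 times WT (edgeR adjusted p = 0.00676), and strand-specific counting is not stated, so part of these reads may belong to Tmtc1.

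Splice junction choice inside the genes was examined because hnRNP L acts in splicing. Of 381 junctions with at least 10 reads in 80 ribosomal protein genes, 361 known and 20 putative, none passed for a change in its share of the gene's junction reads (edgeR diffSpliceDGE, lowest adjusted p = 0.999989). Over all genes 4 of 105454 junctions passed, 0.00379%. At an unadjusted p under 0.05 there were 4 in the ribosomal protein genes (1.05%), beside 2.46% over all junctions. The lowest was a known junction of Rpl7a, a large subunit protein (chromosome 2, 26767965 to 26768191, plus strand, deposited coordinates), with 149 and 111 reads in KO and 401 and 269 in WT and a log2 change in usage of -1.32 (unadjusted p = 0.000536). The known junctions of the set held 987999 reads and the putative ones 882.

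Rps24, whose pre-mRNA is known for tissue-specific use of small exons near its end, was read at the donor that serves them (chromosome 14, 25312715 in the deposited coordinates). Reads from this donor to the acceptor at 25314652 made up 2.13% (21 of 985 reads, 95% Wilson interval 1.40% to 3.24%) and 4.97% (36 of 724, 3.61% to 6.81%) in KO, against 3.31% (27 of 815, 2.29% to 4.78%) and 3.98% (55 of 1382, 3.07% to 5.14%) in WT. The values of the KO libraries lay on both sides of the WT values. Most reads, 97.7% and 94.8% in KO and 96.6% and 95.4% in WT, went to the acceptor at 25314997. Intervals cover counting error only.

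Small nucleolar RNAs that guide rRNA modification are cut from the introns of many ribosomal protein genes. Within 22 host genes 32 such RNAs were listed, 31 were tested, and 1 was higher and 1 lower. Of all genes tested 11.4% were higher and 9.44% lower. The median log2 fold change of these RNAs was 0.15, against -0.35 for their hosts. Snord34, in Rpl13a, had 2864 and 2726 CPM in KO, against 1643 and 1769.6 CPM in WT (edgeR adjusted p = 0.0252), a call lost without WT replicate 1 (0.117) or WT replicate 2 (0.0947). Rpl13a itself, a large subunit protein, had 172 and 160.0 CPM in KO and 203 and 221 CPM in WT (adjusted p = 0.0689). Snord15b, in Rps3, had 163 and 134 CPM in KO and 228 and 210 CPM in WT (adjusted p = 0.0273), lost without KO replicate 2 (0.113), WT replicate 1 (0.0978) or WT replicate 2 (0.0636), while Snord15a of the same host had 184 and 172 CPM in KO, against 144 and 142 CPM in WT (adjusted p = 0.0769). Whether snoRNAs differed from their hosts was not tested.

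Transcript length went with the fold change across all genes, and most ribosomal protein transcripts are short. They had a median length of 710 bases, and the 63 tested ones under 1000 bases had a median log2 fold change of -0.37, against -0.16 for 1221 other genes of that length, of which 63.8% lay below 0. Those of 1000 to 2000 bases had medians of -0.36 over 13 ribosomal protein genes and -0.01 over 3438 other genes. With a trend on length removed from each library the median of the ribosomal protein genes was -0.23, with 11 of 80 lower and 67 of 80 below 0. Over all genes that fit had 1948 of 15029 lower and a median of -0.01. Rps14 and Rps10 then did not pass, and Rpl22, Rps3 and Rpsa did.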

How the data were processed

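RNA from 2 KO and 2 WT fetal livers was depleted of ribosomal RNA, cut with RNase III, size-selected at 150 to 300 bp and amplified for 12 PCR cycles, per the labels' protocols. The authors deposited a raw count of reads per RefSeq transcript, made from primary alignments of mapping quality 10 or more (minimum score 0, score clear zone 5), per the file headers. The same deposited tables give reads per nucleotide, a coverage signal, and RPKM, which recomputation from the counts matched in 100% of rows and which entered no test. A second deposited table gives a count of reads over each known or putative junction. The sources used here do not give the aligner or build, and strand-specific counting is not stated.

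The members and gene lists were chosen with earlier results of these data known. Of 28283 transcript rows, each gene kept the 1 with most reads in the 4 libraries together (9 members had several). Known junction reads were summed per gene. The 3 known junctions at Rpl26 are filed under Gm15772, a model of the same locus, and were assigned by position. Counts were tested over all genes in R 4.3.3 with edgeR 4.0.16 (quasi-likelihood test), with TMM, filterByExpr and Benjamini-Hochberg adjustment at 0.05, without a block. For junction usage, edgeR's diffSpliceDGE was run on junctions of 10 or more reads in genes holding at least 2 of them. The fits were also run on simulated counts. These gave all genes the same dispersion and no library a shift of its own, so they are no check of the calls here. CPM and the RPKM of the text use TMM-scaled sums of reads on the transcripts used, 47700346 and 48162899 in KO and 33738859 and 56895354 in WT. Junction CPM use known junction reads, 7150406 and 6941562 in KO and 4875332 and 8624429 in WT. The spread behind each p-value is that between these 4 libraries, whose litters are not given.

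Shared sequence was counted as 50-base windows that recur in a transcript of another gene. The windows were those of the GENCODE M21 transcript nearest in length to each gene's RefSeq transcript, among those linked to it. For some genes it is much longer than the transcript counted (Rps20 3706 against 502 bases, Rpl12 1242 against 638). Windows at annotated starts are from RefSeq (GRCm38.p6), a build other than that of the deposited coordinates, and nothing was converted. Genes were named by rule: all members past the threshold, the 5 highest and 5 lowest detected levels, the 3 largest and 3 smallest fold changes, all paralogues, the stalk proteins and Rpsa, members with a called junction, and up to 3 or 4 genes of smallest p per list. Rpl22, Rpl11, Rps19, Rps24, Rps28, Rpl23a, Rpl7a, Rpl13a and the snoRNAs were named after their values were seen. Some genes are not reported here. Alternatives were DESeq2 1.42.0, limma 3.58.1 (voom), no scaling, upper quartile factors, no filter, sums over transcripts, a length trend, a GC trend added after the data were seen, a replicate block, other junction filters, and each library left out.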

Additional observations from a re-analysis of the deposited data

How the results depend on the processing

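No alternative called a ribosomal protein gene higher in KO. By transcript reads, the 10 lower genes became 23 with DESeq2, 24 with no filter on low counts, 24 with a replicate block and 16 with a GC trend (added after the data were seen), and 3 to 19 with a library left out. All 10 were among those lower in each of the first 4. The ribosomal protein genes tested were 85 with DESeq2 or no filter and 80 with the block or the GC trend. Of all genes, 1723 of 19837 were lower with DESeq2 and 1848 of 19837 with no filter. With the block 1998 of 15029 were lower and with the GC trend 1656 of 14724, beside 1419 of 15029 in the main fit. The background thus also rose with the block and the GC trend. The median of -0.37 ran from -0.55 to -0.25 with a library left out, and was -0.28 with no scaling, which moved the median of all genes from 0.02 to 0.11. By junction reads, the 4 lower genes of 82, beside 495 of all 11247, became 16 of 83 with DESeq2, beside 514 of 15239. They were 19 of 83 with no filter (all genes 719 of 15239) and 16 of 82 with the replicate block (625 of 11247). With a library left out the median ran from -0.53 to -0.23. Rpl22l1 and Rpl27a passed in all 13 alternatives by transcript reads, and Rpl14 in all 8 by junction reads. The log2 fold change turned positive for Rpl7l1 with no scaling (0.030) and for Rps27 by transcript reads with the length trend (0.095). With a library left out it ran from -0.54 to 0.28 for Rps27 and from -0.039 to 0.25 for Rps27l by transcript reads, and from -0.49 to 0.039 for Rpl15 by junction reads. Leaving a library out leaves 1 in its group, which is then assumed to vary like the other group. The values that turned did not pass, and the cause was not tested. Junction usage gave 0 calls in every setting run. The block treats libraries whose file names share a number as pairs, which the labels do not state. The deviations of KO replicate 1 and WT replicate 1 correlated at 0.168 over 15029 genes, and with 2 pairs this does not establish a pairing. With 2 libraries a group, modest differences in sparse genes were not detectable: the SE exceeded 0.24 in every gene under 1000 reads.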
